A study of Mus musculus with 9 samples.

Results

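The genes described here are 10 that mark or act in macrophages of tumours: Csf1r, Csf1, Adgre1, Mrc1, Trem2, Mertk, Cd68, Spp1, Sirpa and Lyz2. They were taken by gene name from a deposited table of read counts with 44806 entries, and 9 of the 10 names were found. All 9 passed the filter on low counts, among 16596 genes tested. Lyz2 was not found by name and is described below through an unnamed entry. The samples were mouse tumours of MB49, a bladder cancer line, and the labels give overexpression of HER2, a growth factor receptor, for every group. There were 3 groups of 3 libraries, from tumours treated with PBS (phosphate-buffered saline, the control), Lipo-BiTE or Lipo-TriTE. Both agents are lipid-tagged antibody fragments that engage T cells, a BiTE being a bispecific T cell engager. The labels do not spell out what each agent binds, and they give no age, dose or group treated with the carrier alone. Nor do they state whether each library is from its own mouse, so the p-values below measure the spread between these libraries, which may be technical. The design text names sorted CD3+ T cells as the material, whereas the labels and the extraction protocol describe whole frozen tumour. In counts per kilobase of gene, Krt8, a keratin of epithelial tumour cells, was above Csf1r in 9 of 9 libraries, and Csf1r was above the T cell gene Cd3e in 6 of 9. The exceptions were the Lipo-TriTE libraries, in all of which Cd3e was above Csf1r. In bulk RNA of this kind, fewer cells of a type and less RNA per cell cannot be told apart.

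Macrophages depend on signalling through the receptor CSF1R, which is engaged by the growth factors CSF1 and IL34 and drives survival and differentiation of monocytes and macrophages. Many of the other genes encode surface receptors that decide what a macrophage engulfs: MERTK binds apoptotic cells through bridging proteins, SIRPA receives the inhibitory CD47 signal, TREM2 senses lipids through the adaptor TYROBP, and MRC1 takes up mannosylated glycoproteins. CD68 is a lysosomal glycoprotein, lysozyme is a secreted enzyme that cleaves bacterial cell walls, and osteopontin, the product of Spp1, is a secreted adhesion protein that binds integrins and CD44. Csf1, Mertk and Spp1 are also made by cells other than macrophages, tumour cells among them.

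The stretch of 250 bases before the transcription start is shown for 3 of these genes that differed in how they moved, Cd68 and Trem2, which were higher after both agents, and Spp1, which was not. The sequences are from RefSeq, build GRCm38.p6, printed 5′ to 3′ on the strand of the gene, with capitals for matches to a short motif. The Cd68 stretch lies at chr11:69666171-69666420 on the minus strand, Trem2 at chr17:48346151-48346400 on the plus strand and Spp1 at chr5:104434861-104435110 on the plus strand. None of them overlaps an annotated exon.
Cd68: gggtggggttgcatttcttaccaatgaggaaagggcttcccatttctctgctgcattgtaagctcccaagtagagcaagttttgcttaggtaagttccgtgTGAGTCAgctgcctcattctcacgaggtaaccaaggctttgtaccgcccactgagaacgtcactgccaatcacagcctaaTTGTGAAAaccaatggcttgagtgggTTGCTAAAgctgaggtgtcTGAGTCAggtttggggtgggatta
Trem2: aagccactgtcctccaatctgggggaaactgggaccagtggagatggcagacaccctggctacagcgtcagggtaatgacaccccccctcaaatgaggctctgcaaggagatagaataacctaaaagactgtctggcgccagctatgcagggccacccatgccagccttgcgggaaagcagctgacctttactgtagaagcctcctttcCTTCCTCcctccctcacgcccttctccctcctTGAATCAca
Spp1: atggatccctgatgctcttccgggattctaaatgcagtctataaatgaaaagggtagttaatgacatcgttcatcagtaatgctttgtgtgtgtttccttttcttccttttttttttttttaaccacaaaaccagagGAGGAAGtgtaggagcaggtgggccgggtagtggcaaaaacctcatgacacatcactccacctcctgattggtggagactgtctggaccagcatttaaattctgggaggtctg
The motifs searched on both strands were GAGGAAG for PU.1, the factor encoded by Spi1, TTGNNNAA for C/EBP factors, TGANTCA for AP-1 and CACGTG for E-box factors. In Cd68 the capitals mark 2 AP-1 and 2 C/EBP matches. In Trem2 they mark 1 PU.1 match, on the opposite strand, at 41 to 35 bases before the start, and 1 AP-1 match. In Spp1 they mark 1 PU.1 match at 113 to 107 bases before the start. Among 32851 promoter windows of the same length, 10.6% held the PU.1 motif, 33.3% the C/EBP motif, 6.75% the AP-1 motif and 6.02% the E-box motif. The windows of Csf1 and Mertk held none of the 4 motifs. For Mertk alone, bases just after the start were not found in a known transcript of the gene, so its start is less certain. The Mrc1 window held 2 PU.1 matches, the Lyz2 window 1 C/EBP match, and a second Spp1 window, which lies within annotated exons, 3 C/EBP matches and no PU.1 match. Annotated exons also cover 22 bases of the Mrc1 window and 49 of the Lyz2 window. Windows for Adgre1 and Sirpa were not analysed here. A match is a description of letters, not of a bound site.

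The depth was similar across the study, with 13152783 to 20273548 counts per library, and 3 counts correspond to 0.146 to 0.237 counts per 1000000 (CPM). Values are CPM after scaling by TMM, a method that evens out library composition, and libraries are given in the order of their replicate numbers. Changes were tested with the edgeR quasi-likelihood F test, adjusted over all tested genes by the Benjamini-Hochberg method and called at an adjusted p under 0.05. Replicates were uneven: within groups the pairs farthest apart were Lipo-BiTE 1 and 3, Lipo-TriTE 1 and 3, and PBS 1 and 3 (chi-square of their counts over its degrees of freedom 89.7, 66.8 and 37.2). Values without a library are given where a result turns on it. Both comparisons with PBS share the same 3 control libraries.

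After Lipo-BiTE 7 of the 9 genes rose and none was called lower, beside 13.8% of all tested genes called higher and 3.22% called lower. After Lipo-TriTE 6 rose and 2 fell, Mertk and Spp1, beside 18.9% higher and 14.8% lower among all genes. The median log2 fold change over the 9 genes was 2.77 after Lipo-BiTE and 2.13 after Lipo-TriTE, against -0.02 and 0.00 over all tested genes. Between the agents, 1 gene was called lower after Lipo-TriTE, Csf1, and none higher, beside 5.21% and 4.88% of all genes. Libraries of a treated group and PBS did not overlap for any of the 9 genes after Lipo-BiTE, 7 being higher and 2 lower in all of its libraries (22.7% and 19.4% of all genes). After Lipo-TriTE 6 were higher and 2 lower without overlap (26% and 23.4% of all genes). Between the agents none was higher and 2 were lower without overlap, Csf1 and Mertk (16.1% and 14.4%).

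**Figure D1:**
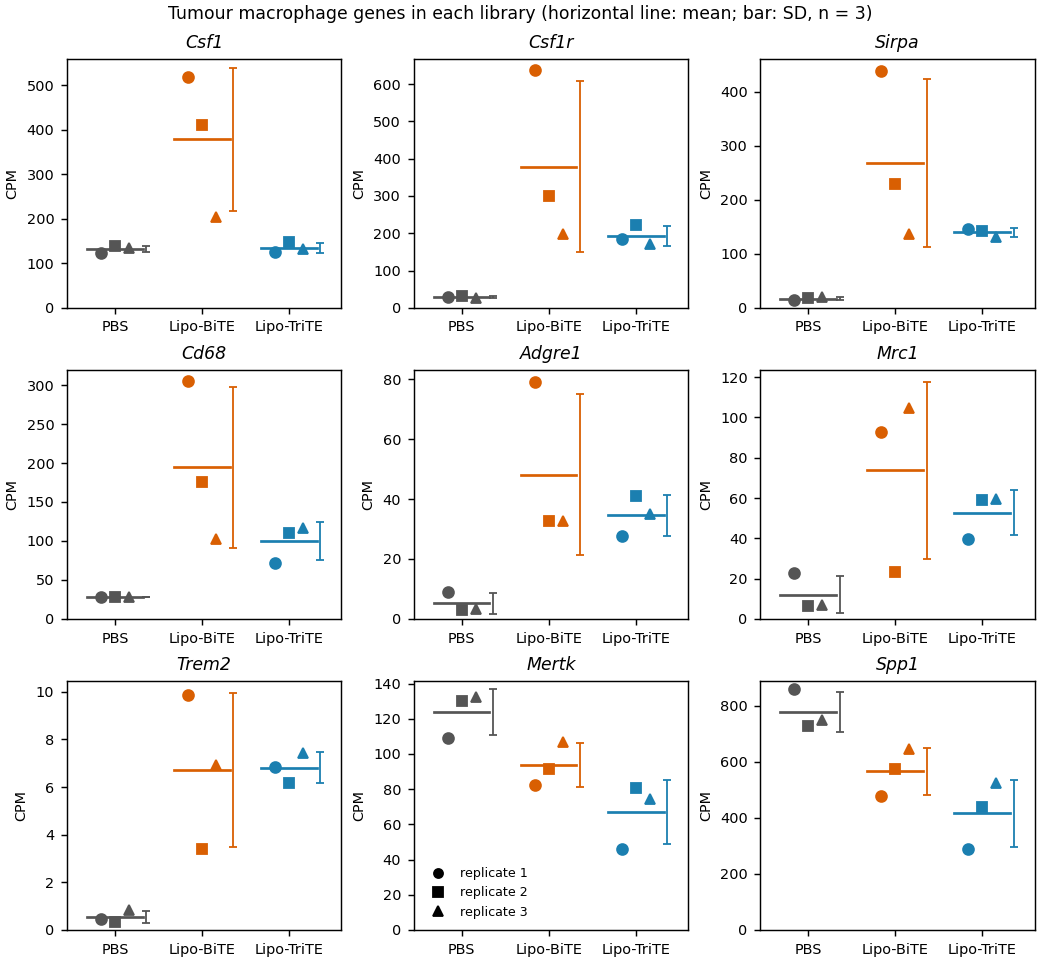
Normalised counts (CPM) of the 9 named genes, 1 panel per gene, with the groups along the horizontal axis, 1 point per library, a horizontal line at the group mean and a bar for the SD (n = 3). The PBS libraries sit below every treated library for Csf1r, Adgre1, Mrc1, Trem2, Cd68 and Sirpa, above every treated library for Mertk and Spp1, and beside those of Lipo-TriTE for Csf1.

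Csf1, the gene of the growth factor, separated the agents. Its levels in PBS were 124, 138 and 134 CPM, those after Lipo-BiTE 519, 411 and 204 CPM, and those after Lipo-TriTE 125, 147 and 132 CPM. Every Lipo-BiTE library was above every other library, whereas the Lipo-TriTE and PBS libraries overlapped. Csf1 rose 2.87-fold after Lipo-BiTE (log2 1.52 ± 0.27 SE, n = 3 and 3, adjusted p = 0.0034 in the edgeR quasi-likelihood test). It did not pass the test after Lipo-TriTE (log2 0.03 ± 0.27, adjusted p = 0.95), with a 95% confidence interval of 0.679 to 1.53 for the fold. The direct comparison gave a level 2.81-fold lower after Lipo-TriTE than after Lipo-BiTE (log2 -1.49 ± 0.27, adjusted p = 0.0099). That call remained without any single library, with adjusted p-values up to 0.0427.

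Il34, the other ligand of CSF1R, was highest in PBS. Its levels were 18.9, 19.7 and 19.1 CPM in PBS, 10.9, 15.9 and 15.0 CPM after Lipo-BiTE and 6.60, 7.87 and 8.49 CPM after Lipo-TriTE. The 3 groups did not overlap. Il34 fell 2.52-fold after Lipo-TriTE (adjusted p = 9e-04), and did not pass the test after Lipo-BiTE (log2 -0.47 ± 0.20, adjusted p = 0.14). It was also lower after Lipo-TriTE than after Lipo-BiTE (log2 -0.86 ± 0.21, adjusted p = 0.026). The call between the agents was lost when PBS 2 or 3, Lipo-BiTE 2 or 3, or any Lipo-TriTE library was left out, with adjusted p-values up to 0.112.

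Csf1r, the receptor, was low and even in PBS at 28.9, 30.9 and 27.7 CPM. It reached 637, 301 and 199 CPM after Lipo-BiTE and 186, 222 and 170.3 CPM after Lipo-TriTE. All 6 treated libraries were above all PBS libraries, and the Lipo-BiTE libraries were the most uneven, with Lipo-BiTE 1 highest. Csf1r rose 13-fold after Lipo-BiTE (log2 3.70 ± 0.38, adjusted p = 0.00076) and 6.61-fold after Lipo-TriTE (log2 2.73 ± 0.36, adjusted p = 0.00043). Without Lipo-BiTE 1 the first fold was 8.59. The Csf1r entry overlaps the opposite-strand gene Hmgxb3, which had 6121 counts over all libraries against 26140 for Csf1r, and whether the counting used strand is not given in the sources used here.

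Transcription factors and growth factor receptors of the same lineage were taken as a list, of which 12 genes were tested. After Lipo-BiTE 9 rose and none was called lower (median log2 2.48), and after Lipo-TriTE 7 rose and 1 fell, Il34 (median 1.54). For this and every later list, the shares of all tested genes called were 13.8% higher and 3.22% lower after Lipo-BiTE. After Lipo-TriTE those shares were 18.9% and 14.8%. Spi1, which encodes PU.1, had 16.2 to 20.5 CPM in PBS, and rose 12.5-fold after Lipo-BiTE and 8.09-fold after Lipo-TriTE (8.22-fold for Lipo-BiTE without its replicate 1). Maf, a transcription factor gene of macrophages that T cells also express, rose 7.18-fold after Lipo-BiTE and 6.56-fold after Lipo-TriTE. Of 10 monocyte genes, 9 rose after Lipo-BiTE, and 8 rose and 1 fell after Lipo-TriTE (medians 3.08 and 2.89). The gene that fell was the fibronectin gene Fn1 (2.12-fold, adjusted p = 0.0022), named here after its value was seen, and fibroblasts also express it. Ccr2, the chemokine receptor of inflammatory monocytes, rose 9.17-fold and 8.97-fold. The fractalkine receptor gene Cx3cr1 rose 6.56-fold and 6.98-fold. Which cells carried the rises of these lineage and monocyte genes was not tested.

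Sirpa, whose product holds phagocytosis back on meeting CD47, had the largest fold estimate of the 9 genes after Lipo-BiTE. Its levels were 13.7, 18.1 and 19.6 CPM in PBS, 439, 228 and 137 CPM after Lipo-BiTE and 146, 142 and 131 CPM after Lipo-TriTE. The treated libraries did not overlap with PBS, and the 3 Lipo-TriTE libraries lay close together. Sirpa rose 15.6-fold after Lipo-BiTE (log2 3.97 ± 0.38, adjusted p = 0.00076) and 8.14-fold after Lipo-TriTE (log2 3.03 ± 0.37, adjusted p = 0.00025). The 95% confidence interval of the first fold, 8.71 to 28, overlapped those of Csf1r (7.3 to 23.1) and Trem2 (5.81 to 25.2). With 1 library left out the first fold ran from 10.7 to 19.1. Cd47, which most cells express, rose far less, 1.69-fold after Lipo-TriTE (adjusted p = 0.0089) and 1.55-fold after Lipo-BiTE (adjusted p = 0.036). The latter call was lost without any 1 of PBS 1, 2 or 3, Lipo-BiTE 1 or 2, or Lipo-TriTE 2. Of 7 tested genes of CD47 and SIRP signalling, 6 rose after each agent (medians 1.48 and 1.40). Among them Fyb, an adaptor of leukocytes, rose 9.33-fold and 12.8-fold, and Ptpn6, the phosphatase SHP-1 that acts below SIRPA, 8.32-fold and 9.13-fold.

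Cd68 was the most even gene in PBS, at 28.1, 28.4 and 28.6 CPM. It was at 305, 175 and 102 CPM after Lipo-BiTE and 72.1, 110.0 and 117 CPM after Lipo-TriTE. All treated libraries were above PBS, and the treated groups overlapped. Cd68 rose 6.84-fold after Lipo-BiTE (log2 2.77 ± 0.35, adjusted p = 0.00084) and 3.51-fold after Lipo-TriTE (log2 1.81 ± 0.34, adjusted p = 0.0029). Other lysosome genes moved in smaller number: of 15 tested, 5 rose and 1 fell after Lipo-BiTE, and 6 rose and 2 fell after Lipo-TriTE (medians 0.41 and 0.28). Without PBS 2 the Lipo-TriTE counts were 2 and 0. Among all tested genes 13.8% rose and 3.22% fell after Lipo-BiTE, and 18.9% and 14.8% after Lipo-TriTE. The protease gene Ctss rose 8.57-fold (5.67-fold without Lipo-BiTE 1) and 8.16-fold, and Tfeb, a factor of lysosome biogenesis, 3.33-fold and 2.45-fold. The protease gene Ctsz rose 1.90-fold after Lipo-BiTE. Its 1.45-fold rise after Lipo-TriTE lost its call when any of the PBS libraries, Lipo-BiTE 2, Lipo-TriTE 2 or Lipo-TriTE 3 was left out.

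Adgre1 encodes F4/80, a surface protein used to mark mouse macrophages. It stood at 9.13, 3.01 and 3.39 CPM in PBS, 79.2, 32.7 and 32.6 CPM after Lipo-BiTE and 27.6, 41.1 and 35.0 CPM after Lipo-TriTE. PBS 1 was the highest of the controls and still below every treated library. Adgre1 rose 9.4-fold after Lipo-BiTE (log2 3.23 ± 0.49, adjusted p = 0.0015) and 6.75-fold after Lipo-TriTE (log2 2.75 ± 0.48, adjusted p = 0.002). Without PBS 1 the folds were 14.9 and 10.6.

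Mrc1, the mannose receptor gene, is often used to mark macrophages of a tissue-repair kind. Its levels were 22.9, 6.37 and 7.07 CPM in PBS, 92.9, 23.3 and 105 CPM after Lipo-BiTE and 39.8, 58.9 and 59.3 CPM after Lipo-TriTE. The lowest treated library, Lipo-BiTE 2, lay just above the highest control, PBS 1. Mrc1 rose 6.13-fold after Lipo-BiTE (log2 2.62 ± 0.60, adjusted p = 0.014) and 4.38-fold after Lipo-TriTE (log2 2.13 ± 0.59, adjusted p = 0.019). Without PBS 1 the folds were 10.9 and 7.71. These were the least stable calls of the 9 genes. After Lipo-BiTE the call was lost without PBS 2 (adjusted p = 0.0605) or PBS 3 (0.0616), after Lipo-TriTE without PBS 2 (0.0751), PBS 3 (0.075) or Lipo-TriTE 3 (0.0501), and after both when no filter on low counts was used (0.109 and 0.134).

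The 17 tested genes of a list of other macrophage genes were examined next to these markers. After each agent 13 of them rose and none was called lower (medians 2.94 and 2.47). Fcgr1, a high-affinity antibody receptor, rose 8.99-fold (5.99-fold without Lipo-BiTE 1) and 5.39-fold, Clec10a, a lectin that dendritic cells also express, 7.65-fold and 16.4-fold, and C1qa, a complement subunit, 9.15-fold and 7.17-fold. Vsig4 had no counts in PBS.

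Lyz2, the lysozyme gene of macrophages and neutrophils, was represented by an assembled locus without a gene name whose deposited description names lysozyme C-2. It spans bases 1 to 1295 of an unplaced contig, not a stretch of chromosome 10, and was chosen after its values were seen. Its counts were 122, 72.8 and 67.8 CPM in PBS, 1328, 536 and 440 CPM after Lipo-BiTE and 618, 713 and 827 CPM after Lipo-TriTE. Treated and PBS libraries did not overlap, and the locus was 8.78-fold higher after Lipo-BiTE (5.59-fold without Lipo-BiTE 1) and 8.22-fold higher after Lipo-TriTE (edgeR adjusted p = 0.00092 and 5e-04). A second unnamed locus, on chromosome 10 and described as lysozyme C-1, rose 12.1-fold (7.37-fold without Lipo-BiTE 1) and 10.8-fold. The genes are near-identical copies, so counting may split reads between them. The count ratio of the first locus to the second was 5.13, 4.39 and 6.10 in PBS and 3.61 to 4.06 in the treated libraries, so every PBS library was above every treated one.

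Trem2, a lipid-sensing receptor gene of tissue and tumour macrophages, was the lowest of the 9 genes, with 6, 6 and 14 counts in PBS. Its levels were 0.445, 0.354 and 0.832 CPM in PBS, 9.86, 3.38 and 6.91 CPM after Lipo-BiTE and 6.85, 6.16 and 7.45 CPM after Lipo-TriTE. No treated library came near the PBS range. Trem2 rose 12.1-fold after Lipo-BiTE (log2 3.60 ± 0.48, adjusted p = 0.00087) and 12.3-fold after Lipo-TriTE (log2 3.62 ± 0.48, adjusted p = 0.00035). The interval of the fold between the agents ran from 0.55 to 1.87 (95% confidence). Its adaptor gene Tyrobp, which natural killer cells and neutrophils also express, had 17.1, 17.6 and 16.9 CPM in PBS and rose 11.9-fold after Lipo-BiTE (7.84-fold without replicate 1) and 9.33-fold after Lipo-TriTE. All 10 tested genes of TREM2 signalling and the TREM family rose after each agent (medians 3.39 and 3.20), among them the phosphatase gene Inpp5d (10.6-fold after each) and Treml2 (10.3-fold, 6.57-fold without Lipo-BiTE 1, and 23.0-fold). Several of these genes are expressed across leukocytes.

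Mertk, the receptor tyrosine kinase gene for uptake of apoptotic cells, did not rise with the macrophage markers. It stood at 109, 130.2 and 132 CPM in PBS, 82.2, 91.7 and 107 CPM after Lipo-BiTE and 46.1, 80.4 and 74.5 CPM after Lipo-TriTE. The groups did not overlap, and Lipo-TriTE 1 was lowest. Mertk fell 1.85-fold after Lipo-TriTE (log2 -0.89 ± 0.20, adjusted p = 0.007), and after Lipo-BiTE its change did not pass the test (log2 -0.40 ± 0.20, adjusted p = 0.19). Between the agents the log2 difference was -0.48 ± 0.20 (adjusted p = 0.16).

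The ligands and relatives of MERTK were mixed. Gas6, a bridging ligand, was at 3.64, 0.767 and 0.951 CPM in PBS, 20.2, 2.41 and 21.7 CPM after Lipo-BiTE and 5.68, 11 and 10.9 CPM after Lipo-TriTE. It rose 8.45-fold and 5.24-fold (adjusted p = 0.025 and 0.04), but Lipo-BiTE 2 lay below PBS 1. Its first call was lost without PBS 2, PBS 3 or Lipo-BiTE 1, its other call without PBS 2, PBS 3 or any Lipo-TriTE library, and without PBS 1 the folds were 17 and 10.4. Pros1, the other bridging ligand, fell 1.57-fold after Lipo-TriTE (adjusted p = 0.0066) and 1.5-fold after Lipo-BiTE (adjusted p = 0.021, lost without any PBS library, Lipo-BiTE 1 or Lipo-BiTE 2). The related receptor gene Axl fell 1.67-fold after Lipo-TriTE (adjusted p = 0.0041), with a log2 difference of -0.05 ± 0.15 after Lipo-BiTE that did not pass (adjusted p = 0.85). Of 17 tested genes of apoptotic cell uptake, 5 rose and 2 fell after Lipo-BiTE, and 7 rose and 7 fell after Lipo-TriTE (medians -0.05 and -0.34). Elmo1, an engulfment adaptor that lymphocytes also express, rose 7.45-fold and 10.6-fold, and the scavenger receptor gene Cd36 8.00-fold and 9.90-fold, whereas the engulfment receptor gene Megf10 fell 2.47-fold and 2.93-fold.

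Spp1 had the highest level per kilobase of the 9 genes in each group. It had 859.8, 728 and 749 CPM in PBS, 478, 575 and 646 CPM after Lipo-BiTE and 288, 438 and 524 CPM after Lipo-TriTE. Every treated library was below every PBS library, and the treated groups overlapped. Spp1 fell 1.87-fold after Lipo-TriTE (log2 -0.90 ± 0.21, adjusted p = 0.0076), and after Lipo-BiTE its change did not pass the test (log2 -0.46 ± 0.21, adjusted p = 0.15). With no filter on low counts the latter was called (adjusted p = 0.0431). Of 8 tested osteopontin receptor genes, 3 rose after Lipo-BiTE, and 3 rose and 2 fell after Lipo-TriTE (medians 0.30 and 0.37). The integrin genes Itgb1 (7.79-fold and 9.56-fold) and Itga4 (9.43-fold and 14.0-fold) rose after both agents, and Itgb5 fell 1.99-fold after Lipo-TriTE. Cd44 did not pass after either agent (log2 0.73 ± 0.26, adjusted p = 0.082, and log2 0.08 ± 0.26, adjusted p = 0.84).

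**Figure D2:**
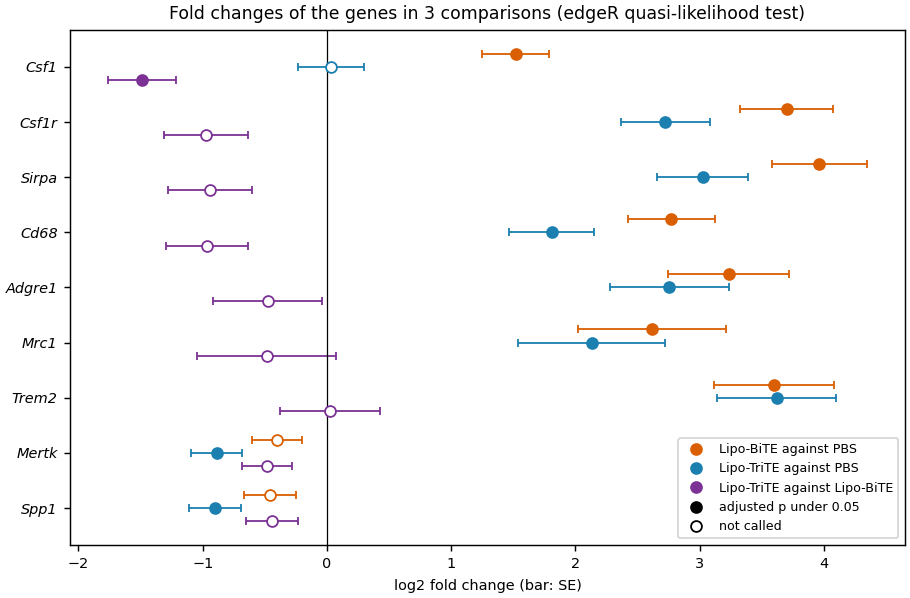
Log2 fold changes of the 9 named genes in the 3 comparisons, with points for the estimates, bars for the SE and filled points for changes with an adjusted p under 0.05. Against PBS the values run from -0.46 (Spp1) to 3.97 (Sirpa) after Lipo-BiTE and from -0.90 (Spp1) to 3.62 (Trem2) after Lipo-TriTE, and between the agents Csf1 alone is called.

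Mertk and Spp1 were set beside the keratin gene Krt8, a comparison chosen after the values were seen and therefore not tested. Krt8 does not stand for all epithelial markers, of which Krt8 and Krt18 fell after Lipo-TriTE while Cdh1 and Krt7 rose after both agents. Krt8 averaged 465 ± 13.2 CPM (SD, n = 3) in PBS, 329.1 ± 58.1 after Lipo-BiTE and 246.5 ± 76.1 after Lipo-TriTE, and fell after Lipo-TriTE (log2 -0.92 ± 0.22, adjusted p = 0.0098). The ratio of Spp1 to Krt8 in CPM lay between 1.49 and 1.86 in all 9 libraries, with means of 1.68, 1.73 and 1.71. The ratio of Mertk to Krt8 lay between 0.235 and 0.309, with means of 0.267, 0.287 and 0.275. The groups overlapped in both ratios, whereas the mean ratio of Csf1r to Krt8 went from 0.0627 in PBS to 1.27 and 0.84, and that of Csf1 from 0.284 to 1.23 and 0.582. Over the 9 libraries, which share their group differences, the correlation of log2 CPM with the summed epithelial markers was 0.977 for Mertk and 0.96 for Spp1. It was -0.633 for Csf1r. Krt8 is itself a large part of that sum (463 of 935 CPM in PBS 1 and 159 of 398 CPM in Lipo-TriTE 1). With the summed fibroblast markers the correlation was 0.743 for Mertk and 0.65 for Spp1. With the summed T cell markers it was -0.892 and -0.903.

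**Figure D3:**
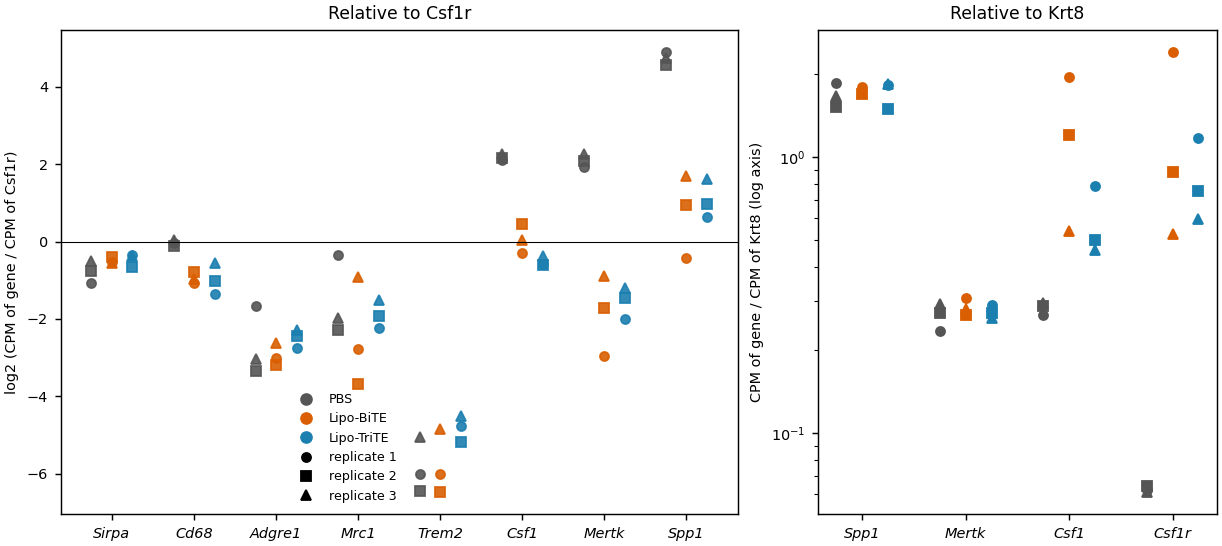
Left, log2 ratio of each of the other named genes to Csf1r, and right, ratio of 4 genes to Krt8 (log axis), with 1 point per library, colours for groups and shapes for replicates. The ratios of Mertk, Spp1 and Csf1 to Csf1r are highest in PBS, and those of Spp1 and Mertk to Krt8 overlap between all groups.

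Ratios to Csf1r describe how the genes changed relative to a shared macrophage receptor. The mean log2 ratio of Csf1 to Csf1r was 2.18 in PBS, 0.06 after Lipo-BiTE and -0.51 after Lipo-TriTE. For Sirpa the values were -0.78, -0.49 and -0.46, and for Cd68 -0.04, -0.93 and -0.97. For Mertk they were 2.08, -1.85 and -1.56, and for Spp1 4.74, 0.74 and 1.08. Ratios to Adgre1 were also taken. There Cd68 had means of 2.65, 2.01 and 1.52 and overlapped PBS after both agents, whereas against Csf1r it was lower without overlap. Csf1, Mertk and Spp1 were lower than PBS without overlap against either reference. With 3 libraries a group the exact permutation test (two-sided) cannot go below p = 0.1, and none of the 60 ratio tests had an adjusted p under 0.29. Over the 9 libraries Csf1r correlated at 0.995 with Sirpa, 0.979 with Cd68, 0.951 with Adgre1 and 0.70 with Csf1, given as a description since all share the treatment groups.

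Between the agents, the point estimates of 8 of the 9 genes were lower after Lipo-TriTE, and 7 of those 8 did not pass the test. The log2 differences were -0.97 ± 0.34 for Csf1r (adjusted p = 0.097), -0.96 ± 0.33 for Cd68 (0.094) and -0.94 ± 0.34 for Sirpa (0.11). The calls of these 3 genes changed with the settings. With no filter on low counts all 3 were called lower after Lipo-TriTE (adjusted p = 5.78e-05, 1.82e-05 and 9.19e-05). Without Lipo-BiTE 3, the library with the lowest Csf1r of that group, they were called as well (0.0185, 0.0163 and 0.0163), and the DESeq2 Wald test called Csf1r and Cd68 (0.0459 for each). With all libraries, the groups of both agents overlapped for Csf1r, Cd68 and Sirpa. They also overlapped for Adgre1 (-0.48, adjusted p = 0.54), Mrc1 (-0.49, 0.64), Spp1 (-0.44, 0.21) and Trem2 (0.02, 0.98).

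**Figure D4:**
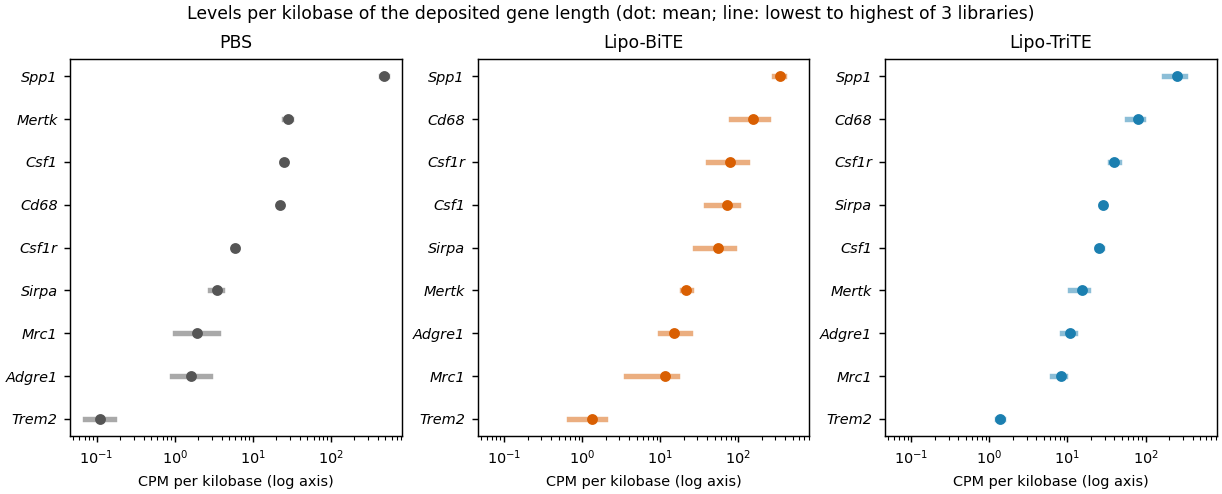
Mean level of each named gene in CPM per kilobase (RPKM, log axis), 1 panel per group, with a dot at the mean of 3 libraries and a line from the lowest to the highest. Spp1 is at the top and Trem2 at the bottom of every group, and Cd68, Csf1r and Sirpa rank above Mertk in both treated groups but below it in PBS.

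Levels between genes were compared per kilobase of the deposited gene model (RPKM). In PBS the order of the means was Spp1 at 473 RPKM, Mertk 28.6, Csf1 25, Cd68 22.6, Csf1r 5.99, Sirpa 3.49, Mrc1 1.90, Adgre1 1.59 and Trem2 0.11. The ranges of Mertk and Csf1 overlapped, as did those of Sirpa and Mrc1 and of Mrc1 and Adgre1. Within each PBS library, however, Mertk was above Csf1 and Mrc1 above Adgre1, and Sirpa was below Mrc1 in PBS 1 only. After Lipo-BiTE the order was Spp1 at 344, Cd68 155, Csf1r 77.8, Csf1 71.6, Sirpa 54.6, Mertk 21.6, Adgre1 14.8, Mrc1 11.6 and Trem2 1.36. There Cd68, Csf1r, Csf1 and Sirpa each overlapped the next, as did Mertk, Adgre1 and Mrc1. Within each Lipo-BiTE library Cd68 was above Csf1r and Csf1 above Sirpa, whereas the other overlapping pairs of neighbours changed order between libraries. After Lipo-TriTE it was Spp1 at 253, Cd68 79.3, Csf1r 39.6, Sirpa 28.5, Csf1 25.5, Mertk 15.5, Adgre1 10.7, Mrc1 8.27 and Trem2 1.38, with overlaps of Sirpa with Csf1, of Mertk with Adgre1 and of Adgre1 with Mrc1. Within each Lipo-TriTE library, however, each of these pairs kept that order. Trem2 has a deposited model of 4946 bases, and its level per kilobase depends on that length.

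The genes most like each of the 9 were taken by Pearson correlation of log2 CPM over the 9 libraries, among 11662 genes. The 9 genes themselves, predicted models, receptor and immunoglobulin segments, unnamed loci and genes averaging under 1 CPM were left out. The values are the highest of many, over libraries that share their group differences, and serve as a description only. For Csf1r they were Lrrc25 (0.995), App and Spint1, for Sirpa Rasgrp4 (0.995), Pmaip1 and Spi1 (0.994), and for Cd68 Lgals3 (0.997), Atf3 and Rab44. For Adgre1 they were Clec4a1 (0.991), Ccl9 and Cysltr1, and for Mrc1 Gas6 (0.991), C1qc (0.978) and Ccl7. Csf1 had Acap2 (0.989), Noct and Tnfaip2, and Trem2 had Syce2 (0.985), Repin1 and Dscam. Mertk had Cacna2d1 (0.987), Smyd2 and Nov, and Spp1 had Ahcyl1 (0.997), Fkbp1a and Mcfd2. Mrc1, Gas6 and C1qc were all low in Lipo-BiTE 2 among its group and high in PBS 1 among the controls.

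Markers of several other cell types also differed between the groups. Their counts stand beside 13.8% of all tested genes called higher and 3.22% lower after Lipo-BiTE, and 18.9% and 14.8% after Lipo-TriTE. The sum of 10 neutrophil markers was 226 to 403 CPM in PBS, 1305 to 6905 CPM after Lipo-BiTE and 1684 to 4698 CPM after Lipo-TriTE, and 9 and 10 of the 10 rose. With no filter on low counts 5 of them were called higher after Lipo-BiTE. None of them was at 0 in any group, and the log2 correlation of their sum with Csf1r over the 9 libraries was 0.939. It was 0.949 for each of Sirpa and Cd68, 0.901 for Trem2, 0.886 for Adgre1 and 0.717 for Mrc1. For Csf1 it was 0.59, for Mertk -0.592 and for Spp1 -0.653. The sum of 10 T cell markers was 38.1 to 48.6, 190 to 371 and 895 to 1508 CPM, and all 10 rose after each agent. The sum of 8 dendritic cell markers was 24.8 to 33.7, 56.4 to 76.8 and 288 to 371 CPM, with 6 and 8 of the 8 higher. Epithelial markers, of which Krt7 was at 0 in PBS, summed to 902 to 975, 613 to 841 and 398 to 679 CPM. Of the 6 tested, 2 rose after Lipo-BiTE and none was called lower, and 2 rose and 2 fell after Lipo-TriTE (medians -0.08 and 0.11). After Lipo-BiTE, 1 rose without PBS 1, PBS 2, PBS 3 or Lipo-BiTE 1, and 1 fell without Lipo-TriTE 1. After Lipo-TriTE, 1 rose without Lipo-TriTE 1, and 1 fell without PBS 2. Cdh1 rose 6.20-fold and 9.27-fold, and Krt7 rose from 0. Fibroblast markers summed to 2083 to 3177, 1373 to 2316 and 939 to 1464 CPM, and 5 and 4 of 9 fell (2 to 3 after Lipo-BiTE without PBS 2, PBS 3, Lipo-BiTE 1, Lipo-BiTE 2 or Lipo-TriTE 2). Of 6 B cell markers none was called after Lipo-BiTE by edgeR (3 were higher at an unadjusted p under 0.05, and DESeq2 called 2), and all 6 rose after Lipo-TriTE. Of 5 tested mast cell markers 1 rose after Lipo-BiTE and all 5 after Lipo-TriTE, with medians of -0.04 and 2.6. All 5 tested natural killer cell markers rose after each agent (3 after Lipo-BiTE without PBS 1, PBS 3 or Lipo-BiTE 1). Of 5 tested endothelial markers 2 rose after Lipo-BiTE, and 3 rose and 1 fell after Lipo-TriTE (0 fell without PBS 2, PBS 3, Lipo-TriTE 2 or Lipo-TriTE 3). The part of these cell types in the changes of the 9 genes and of the gene lists above was not tested.

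**Figure D5:**
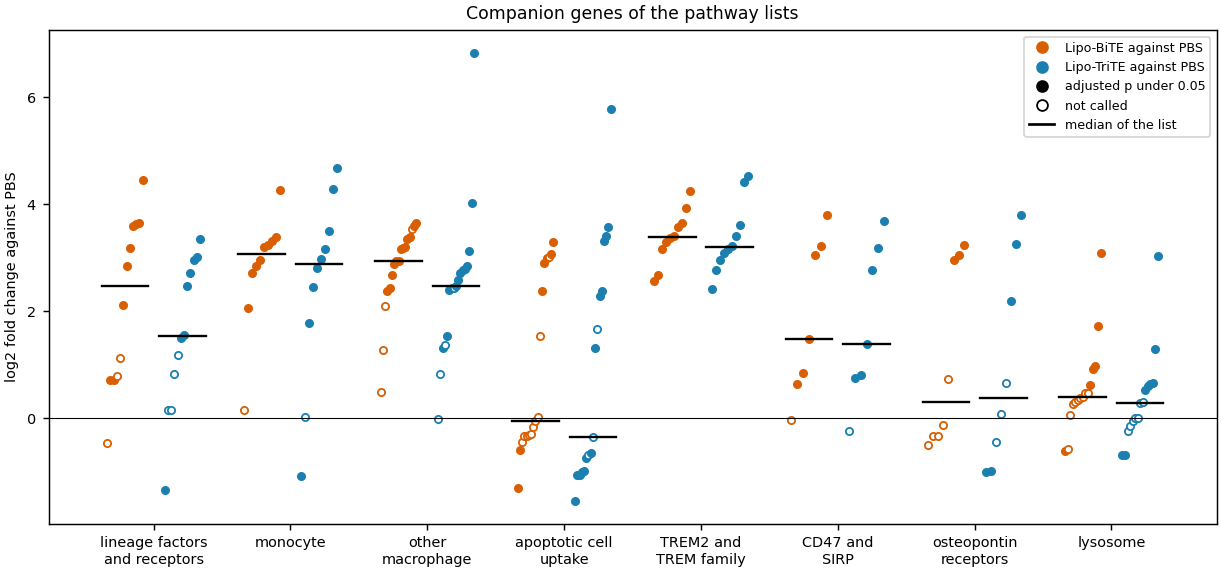
Log2 fold changes of the tested genes of each companion list against PBS, with 1 point per gene and agent and a line at the list median. The TREM family, monocyte and other macrophage lists lie mostly above 0 and the apoptotic cell uptake list is spread on both sides, and the 2 highest points after Lipo-TriTE, Marco and Timd4, rest on 1 and 3 counts over the PBS libraries.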

How the data were processed

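RNA of 9 tumour samples was sequenced, and the values are raw read counts per gene as deposited, in 1 table. Per the labels' protocols tumours were frozen and homogenised, and fragmented mRNA was copied with random primers. The sources used here do not name the aligner, counter, build or strand setting. C57BL/6NJ models underlie the gene identifiers. Columns named untreated were taken as the PBS libraries, an inference from their numbers. Where a name occurred more than once (52 names) the entry with most counts kept it. Unnamed loci (3710) stayed in the tests and took 1.17% to 2.14% of the counts.

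Analysis used R 4.3.3 and edgeR 4.0.16: filterByExpr, TMM, and the robust quasi-likelihood F test over all 9 libraries with 1 mean per group, no covariate and 6 residual degrees of freedom. Benjamini-Hochberg adjustment ran over 16596 genes. CPM use TMM-scaled totals and RPKM the deposited gene length. Replicate libraries differed beyond counting error, with a chi-square over its degrees of freedom of 4.81 to 89.7. The test was also run on simulated counts, with far fewer changed genes than here and each gene drawn independently. No conclusion is drawn from that run. Alternatives were DESeq2 1.42.0 (size factors and Wald test), total counts, no filter, at least 1 CPM in 3 libraries, fits of 2 groups, a replicate block and leaving out each library.

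All 10 genes were named whatever their result, with fixed partners and the 3 genes of smallest p over the groups in each companion list. For each gene found by name, the 3 most correlated genes outside the 10 were also named. Some genes that this rule names are not reported here. Fn1, C1qa, Krt8, Marco, Timd4 and the lysozyme loci were named after their values were seen. The genes and lists were chosen with earlier results of these data known. Promoter windows are from RefSeq.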

Additional observations from a re-analysis of the deposited data

How the results depend on the processing

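The direction and call of each of the 9 genes against PBS remained under DESeq2 size factors, total counts, at least 1 CPM in 3 libraries, fits of only 2 groups, the replicate block and the DESeq2 Wald test, and the exceptions under other settings are these. Among partners, Cd47 after Lipo-BiTE was not called on total counts (adjusted p = 0.0618), in the fit of 2 groups (0.0547) or with the replicate block (0.0704). Gas6 was not called with no filter (0.142 and 0.193) or, after Lipo-BiTE, in the fit of 2 groups (0.0538), and Ctsz after Lipo-TriTE not with the replicate block (0.0622). Il34 between the agents was not called on total counts (0.0654) or in the fit of 2 groups (0.0833). With no filter, 1 gene was called lower after Lipo-BiTE (Spp1) and 4 between the agents (Csf1, Csf1r, Cd68 and Sirpa), and with the DESeq2 Wald test 3 were called lower between the agents, against 1. Leaving out 1 library each gave 1 to 4 called lower between the agents (4 without Lipo-BiTE 3), 6 to 7 higher after Lipo-BiTE and 5 to 6 after Lipo-TriTE. Among the 9 genes and the lysozyme loci, signs turned only for differences that were not called. Csf1 after Lipo-TriTE against PBS was -0.034 without PBS 1 and -0.017 without Lipo-TriTE 2 (log2), with leave-one-out values up to 0.097. Between the agents Adgre1 was 0.052 without Lipo-BiTE 1 and as low as -0.71 otherwise, and Trem2 ran from -0.32 without Lipo-BiTE 2 to 0.38 without Lipo-BiTE 1 (-0.055 without Lipo-TriTE 3). The lysozyme C-2 and C-1 loci were 0.073 and 0.011 on total counts and 0.10 and 0.064 with the replicate block. Leaving out 1 library, they ran from -0.33 and -0.42 to 0.53 each (without Lipo-BiTE 1), and the former was 0.039 without Lipo-TriTE 1. Fitted on only 2 groups, or with at least 1 CPM in 3 libraries, 1 epithelial marker was called higher after each agent, against 2.

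Counts over all genes moved more. Genes lower after Lipo-BiTE numbered 534, against 988 on total counts, 995 by the Wald test, 839 with no filter, 282 with the replicate block and 80 to 971 when 1 library was left out. Those lower after Lipo-TriTE were 1391 to 2644, and those higher after Lipo-BiTE 1455 to 2656. Between the agents 810 were higher, against 1475 by the Wald test, 1538 with no filter and 276 to 1077 with 1 library out, and 865 lower, against 451 on total counts, 1455 with no filter, 510 in the fit of 2 groups and 158 to 1120. Total counts moved the median of all genes by -0.13 after Lipo-BiTE and by 0.12 between the agents, and the share of calls that were higher from 81% to 67.8% and from 48.4% to 70.9%. Same-numbered libraries did not deviate together (0 of 9 pairs with a correlation over 0.1). The nearest library of each other group was sought for every library, and it had the same number in 6 of 18 cases. With 3 libraries a group, this cannot settle whether equal numbers share anything more, such as a batch. The cause of the shifts in the counts was not tested. Trem2, with 26 counts over the PBS libraries, is the one of the 9 genes with the fewest.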
